A study of Mus musculus with 16 samples.

Results

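The intercalated disc is the contact at which neighbouring heart muscle cells are joined end to end, and 10 genes that encode its adhesion and gap junction proteins were followed across the left ventricles of 16 mice. The genes were Ctnna3, Ctnna1, Ctnnb1, Cdh2, Gja1, Dsg2, Dsc2, Pkp2, Jup and Dsp. They were taken by name: each is the row of the count table whose Ensembl gene ID maps to the listed symbol, 10 rows of 57186, and all 10 were among the 15206 genes with enough counts to test. The list was chosen on measured values of the knockout against its control, in which Ctnna3 was lower after both operations, so differences between the genotypes are given for these 10 genes as a description without p-values. For these 10 genes the tests below concern the response to surgery and the difference of that response between genotypes. How many of the 10 passed between genotypes is counted only as a description.

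The study had 4 groups of C57/BL6N mice with 4 biological replicates in each. The cKO TAC group had a cardiomyocyte-specific knockout of Tfeb, the gene of the lysosomal transcription factor TFEB, labelled cKO-TFEB, and had transverse aortic constriction (TAC), in which the aorta is narrowed and the left ventricle is loaded with pressure. The WT TAC group had the same operation in control mice labelled WT, the cKO sham group was the knockout after sham surgery, and the WT sham group was the control after sham surgery. The Cre driver, the alleles that the controls carried, the age, the sex and the time after surgery are not given in the sources used here. Bulk RNA from the whole left ventricle was sequenced, so fewer cells of a type and less RNA per cell cannot be told apart.

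Cells of the heart are held together at the disc by adherens junctions and desmosomes. In adherens junctions N-cadherin (Cdh2) spans the membrane and is tied to actin through beta-catenin (Ctnnb1) or plakoglobin (Jup) and an alpha-catenin (Ctnna1 or Ctnna3). In desmosomes desmoglein-2 (Dsg2) and desmocollin-2 (Dsc2) span the membrane, and plakoglobin, plakophilin-2 (Pkp2) and desmoplakin (Dsp) link them to desmin filaments. Gap junctions built from connexin 43 (Gja1) pass the electrical impulse from cell to cell. Inherited loss of desmosomal proteins is a known cause of arrhythmogenic cardiomyopathy in people, and a lower or displaced connexin 43 is a known feature of failing hearts.

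Totals were 12946878 to 16347388 counts per library, and levels are given as CPM, counts scaled to the library's total times its TMM factor. Tfeb itself was at 12.7 ± 2.34 CPM in cKO TAC and 29.1 ± 9.77 CPM in WT TAC, and at 10.5 ± 1.74 CPM in cKO sham and 36.5 ± 3.94 CPM in WT sham hearts (SD, n = 4 each), with no overlap between the genotypes after either operation. The cardiomyocyte markers were abundant in every group: the sum over 11 of them was 49509 to 68476 CPM in cKO TAC, 64512 to 75444 CPM in WT TAC, 71855 to 84410 CPM in cKO sham and 73408 to 87131 CPM in WT sham libraries. The sum of 6 atrial markers was 981 to 1993 CPM in cKO TAC, 177 to 1470 CPM in WT TAC, 270 to 702 CPM in cKO sham and 22.7 to 3778 CPM in WT sham libraries. Nppa, a natriuretic peptide gene that loaded ventricles are also known to express, made up most of it in cKO, at 960.0 to 1933 CPM in cKO TAC, 162 to 642 CPM in WT TAC, 261 to 671 CPM in cKO sham and 14.1 to 1221 CPM in WT sham. The other 5 markers summed to 2557 CPM in WT sham replicate 3 and 937 CPM in WT TAC replicate 4, and to at most 290.0 CPM in the other libraries (20.9 to 60.2 CPM in cKO TAC and 8.35 to 31.2 CPM in cKO sham). Values without these 2 WT libraries are given as well for the genotype differences of Ctnna3, Pkp2 and Dsc2 and for the TAC changes of Dsg2 and Dsc2 in WT.

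The 10 genes lay at very different levels once exon length was taken into account. Over all 16 libraries Ctnna1 and Dsp averaged 89.2 and 89.1 CPM per kb of exon, Jup and Ctnnb1 59.3 and 58.1, Cdh2, Gja1 and Pkp2 36.7, 35.0 and 32.7, Dsg2 8.12, Dsc2 6.65 and Ctnna3 1.75 CPM per kb. The plakin Dsp and the alpha-catenin Ctnna1 overlapped in all 4 groups, and so did Jup and Ctnnb1. Cdh2, Gja1 and Pkp2 overlapped in each group except WT sham, where Pkp2 (26.5 to 28.0 CPM per kb) was below Cdh2 (33.8 to 42.4) and the lowest Ctnnb1 library (43.0) reached into the range of Gja1 (35.0 to 51.6). Both desmosomal cadherins were far below the plaque proteins that they bind. Dsg2 was above Dsc2 without overlap in cKO TAC (6.26 to 7.36 against 3.76 to 6.11 CPM per kb) and in cKO sham (7.94 to 10.0 against 5.85 to 7.64). Their ranges overlapped in both WT groups. In WT sham the overlap rested on replicate 3, a library rich in atrial transcripts. It held both the highest Dsc2 (10.6 CPM per kb) and the lowest Dsg2 (8.8 CPM per kb) of that group. Ctnna3 was lowest in every library of every group. Exon lengths came from a GRCm38 annotation, while the reads were counted on GRCm39.

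**Figure D1:**
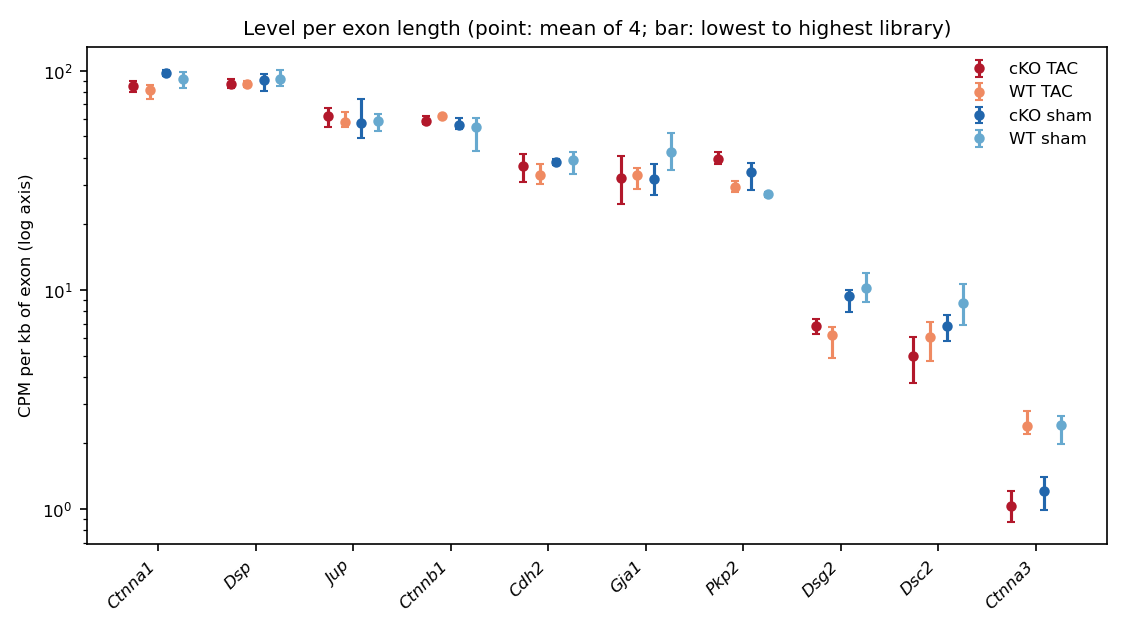
Level per exon length, as CPM per kb on a log axis, for the 10 genes in cKO TAC, WT TAC, cKO sham and WT sham left ventricles. Points are means of 4 libraries and bars run from the lowest to the highest library; Ctnna1 and Dsp are at the top near 89 CPM per kb and Ctnna3 is at the bottom with 1.75 CPM per kb over all libraries.

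Ctnna3 encodes alphaT-catenin, an alpha-catenin found mainly in heart and testis that binds beta-catenin or plakoglobin and can also bind plakophilin-2. It was at 7.44, 6.32, 8.69 and 7.19 CPM in the 4 cKO TAC libraries, against 15.8, 17, 16.2 and 20.1 CPM in the WT TAC libraries. After sham surgery it was at 10.0, 9.12, 7.15 and 8.51 CPM in cKO, against 14.3, 17, 19.2 and 18.7 CPM in WT. Every cKO library was below every WT library of the same operation, and the highest cKO library of either operation (10.0 CPM) was below the lowest WT library of either (14.3 CPM).

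The values that chose the list gave a level of 0.429 times WT in cKO TAC (log2 -1.22, SE 0.14) and of 0.504 times WT in cKO sham (log2 -0.99, SE 0.14). Over 26 alternative settings the log2 difference ran from -1.31 to -1.13 after TAC and from -1.07 to -0.91 after sham surgery. Without WT sham replicate 3 and WT TAC replicate 4 it was -1.14 and -0.94. Raw counts behind these values were 96 to 345 per library. Markers of some cell types also leaned to 1 side between the genotypes by their estimates. Over all marker lists only Pdgfra passed. Among the 11 cardiomyocyte markers 10 were lower by their estimates in cKO TAC than in WT TAC (median log2 -0.24) and 7 in cKO sham than in WT sham (median -0.18), of which 0 passed after either operation in edgeR (4 at an unadjusted p under 0.05 after TAC and 2 after sham surgery). Of 6 fibroblast markers 5 had positive estimates after each operation (median 0.33 after TAC and 0.16 after sham surgery), and Pdgfra was higher in cKO TAC (log2 0.60, SE 0.13, edgeR adjusted p = 0.0303). All 6 macrophage markers had positive estimates after both operations (median log2 0.44 after TAC and 0.425 after sham surgery), of which 0 passed and 3 were at an unadjusted p under 0.05 in each. Endothelial markers had negative estimates for 6 of 6 after TAC (median log2 -0.095) and 4 of 6 after sham surgery (median -0.13), of which 0 passed. Of 5 tested atrial markers 4 had negative estimates after each operation (median log2 -4.52 after TAC and -5.48 after sham surgery). Of these 0 passed, and 3 and 4 were at an unadjusted p under 0.05. All 5 erythroid markers had negative estimates after both operations (median -0.19 and -0.99), of which 0 passed. The 1 tested adipocyte marker was at -6.90 and -3.34 and did not pass. The part of the cell mixture in the Ctnna3 difference was not tested.

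Its widely expressed relative Ctnna1, alphaE-catenin, was far more abundant. It was at 510, 552, 552 and 574 CPM in cKO TAC, against 476, 552, 524 and 553 CPM in WT TAC. After sham surgery it was at 651, 609, 607 and 647 CPM in cKO, against 535, 632, 570 and 621 CPM in WT, so the genotypes overlapped after both operations. Per kb of exon, Ctnna3 amounted to 1.2% ± 0.173 of Ctnna1 in cKO TAC and 2.92% ± 0.236 in WT TAC, and to 1.23% ± 0.15 in cKO sham and 2.61% ± 0.291 in WT sham (SD, n = 4 each). AlphaT-catenin transcripts were a small share of the alpha-catenin transcripts of the whole ventricle in both genotypes. Ctnna1 is widely expressed, and the share within heart muscle cells was not measured.

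Ctnna3 spans 1574 kb of chromosome 10 on the plus strand in the GRCm38 annotation, against 25.2 to 220 kb for the other 9 genes. RefSeq on GRCm38.p6 lists 3 starts for it, and the 250 bases before each are shown because TFEB is known to bind the E-box CACGTG and its extended form TCACGTGA. Capitals mark each CANNTG, the general E-box letters, and all are written 5′ to 3′ on the gene's strand.
Ctnna3 start 1, chr10:63429848-63430097: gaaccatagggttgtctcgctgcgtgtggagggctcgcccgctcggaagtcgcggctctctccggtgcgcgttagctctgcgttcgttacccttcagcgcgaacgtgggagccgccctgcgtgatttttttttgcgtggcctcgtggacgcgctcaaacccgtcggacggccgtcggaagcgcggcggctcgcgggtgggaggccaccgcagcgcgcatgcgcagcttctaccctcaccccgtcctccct
Ctnna3 start 2, chr10:63457261-63457510: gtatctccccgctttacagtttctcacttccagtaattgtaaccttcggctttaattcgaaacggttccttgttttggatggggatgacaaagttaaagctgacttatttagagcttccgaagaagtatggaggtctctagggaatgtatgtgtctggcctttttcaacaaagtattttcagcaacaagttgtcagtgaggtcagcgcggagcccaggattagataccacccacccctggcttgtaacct
Ctnna3 start 3, chr10:63820805-63821054: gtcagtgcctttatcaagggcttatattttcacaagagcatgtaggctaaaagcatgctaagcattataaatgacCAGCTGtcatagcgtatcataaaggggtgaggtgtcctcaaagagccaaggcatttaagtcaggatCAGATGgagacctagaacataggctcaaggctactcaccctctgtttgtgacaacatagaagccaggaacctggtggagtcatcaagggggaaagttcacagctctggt
The window of start 1 is rich in G and C (67.6%), those of starts 2 and 3 hold 44.8% and 45.6%, and the median of 32851 mouse promoter windows was 52.4%. In windows of the 250 bases before the start, CACGTG was found in none of the 3 and in 6.02% of all windows, and TCACGTGA in none and in 0.785%. CANNTG, which contains CACGTG as a special case, was found before start 3 as CAGCTG and CAGATG, and in 66.2% of all windows. The M-box letters TCACATG (3.5% of all windows) and the GATA letters GATAAG (6.55%) were in none of the 3. Both strands were searched. The RefSeq table held 8 windows for 5 of the 10 genes, and among these CANNTG was also found for Gja1. Gene counts do not tell which start was used.

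The genes that neighbour Ctnna3 on the chromosome were also measured. Nested within it, Lrrtm3, the gene of a neuronal synapse protein, did not reach the count needed for a test, and its highest library had 0.448 CPM. On one side Herc4, Sirt1 and Dnajc12, and on the other Reep3, Jmjd1c and Nrbf2, did not pass between the genotypes in either operation. The largest log2 difference among these 6 was that of Dnajc12, a DnaJ co-chaperone, at 5.61 ± 1.16 CPM in cKO TAC and 7.26 ± 0.463 CPM in WT TAC (SD, n = 4 each; log2 -0.37, SE 0.17, edgeR adjusted p = 0.255). After sham surgery its estimate had the opposite sign, with 8.63 ± 0.61 CPM in the cKO sham and 7.53 ± 1.62 CPM in the WT sham libraries (log2 0.20, SE 0.16, edgeR adjusted p = 0.621).

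By the log2 CPM of all 16 libraries, genes whose pattern was among those most like that of Ctnna3 were Immp2l (Pearson r = 0.938), Ppp2r3a (0.937), Wif1 (0.892) and Dmd (0.884). These libraries share the 4 groups, so a gene with a similar difference between genotypes has a high r. Immp2l, which encodes a subunit of the peptidase of the inner mitochondrial membrane, was at 4.36 ± 0.36 CPM in cKO TAC and 12.6 ± 1.5 CPM in WT TAC, and at 6.24 ± 0.523 CPM in cKO sham and 11.5 ± 0.45 CPM in WT sham. Dmd, the gene of dystrophin, which ties the cytoskeleton to the matrix along the cell membrane, was at 41.3 ± 6.21 CPM in cKO TAC and 90.4 ± 4.52 CPM in WT TAC, and at 31.1 ± 3.32 CPM in cKO sham and 73.2 ± 14.9 CPM in WT sham (SD, n = 4 each).

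Of the other 9 genes, Pkp2 was the one whose libraries did not overlap between genotypes in both operations. Plakophilin-2 is an armadillo protein of the desmosomal plaque. It was at 209, 201, 210 and 227 CPM in cKO TAC, against 168, 150, 163 and 149 CPM in WT TAC. After sham surgery it was at 153, 191, 188 and 204 CPM in cKO, against 149, 142, 150 and 147 CPM in WT, the lowest cKO library being just above the highest WT library. The level was 1.34 times WT in cKO TAC (log2 0.43, SE 0.09) and 1.25 times WT in cKO sham (log2 0.32, SE 0.09).

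Connexin 43 and desmocollin-2 were lower in cKO sham by their means, with overlapping libraries. Gja1 was at 318, 337, 383 and 277 CPM in cKO sham, against 429, 359, 421 and 529 CPM in WT sham (log2 -0.40, SE 0.16). After TAC its level was 251, 262, 394 and 420 CPM in cKO, against 296, 358, 369 and 350 CPM in WT (log2 -0.05, SE 0.16), and the cKO libraries lay on both sides of the WT libraries. Dsc2 differed by a log2 of -0.34 (SE 0.16) in cKO sham and of -0.29 (SE 0.16) in cKO TAC relative to WT. Without WT sham replicate 3 and WT TAC replicate 4 these Dsc2 differences were -0.23 and -0.29. The log2 differences of the remaining 6 genes (Ctnna1, Ctnnb1, Cdh2, Dsg2, Jup and Dsp) lay between -0.07 and 0.14 after TAC and between -0.13 and 0.09 after sham surgery.

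Counted with the edgeR quasi-likelihood test, 1 of 10 was lower (Ctnna3) and 1 higher (Pkp2) in cKO TAC than in WT TAC, where 1.18% of all tested genes were lower and 0.598% higher. In cKO sham against WT sham 1 of 10 was lower (Ctnna3) and 0 higher, where 0.552% of all tested genes were lower and 0.618% higher. The same pair, Ctnna3 and Pkp2, made up the 2 of 10 genes without overlap of the libraries in each operation, where 10.0% of all tested genes had none after TAC and 7.59% after sham surgery. These contrasts chose the list, and nothing is read from the counts. The Pkp2 call in TAC hearts was lost under 7 of 26 alternative settings, among them the fits without WT TAC replicate 2, 3 or 4 and without cKO TAC replicate 1, 2 or 4. Without WT sham replicate 3 and WT TAC replicate 4 the Pkp2 difference was 0.40 after TAC and 0.33 after sham surgery.

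**Figure D2:**
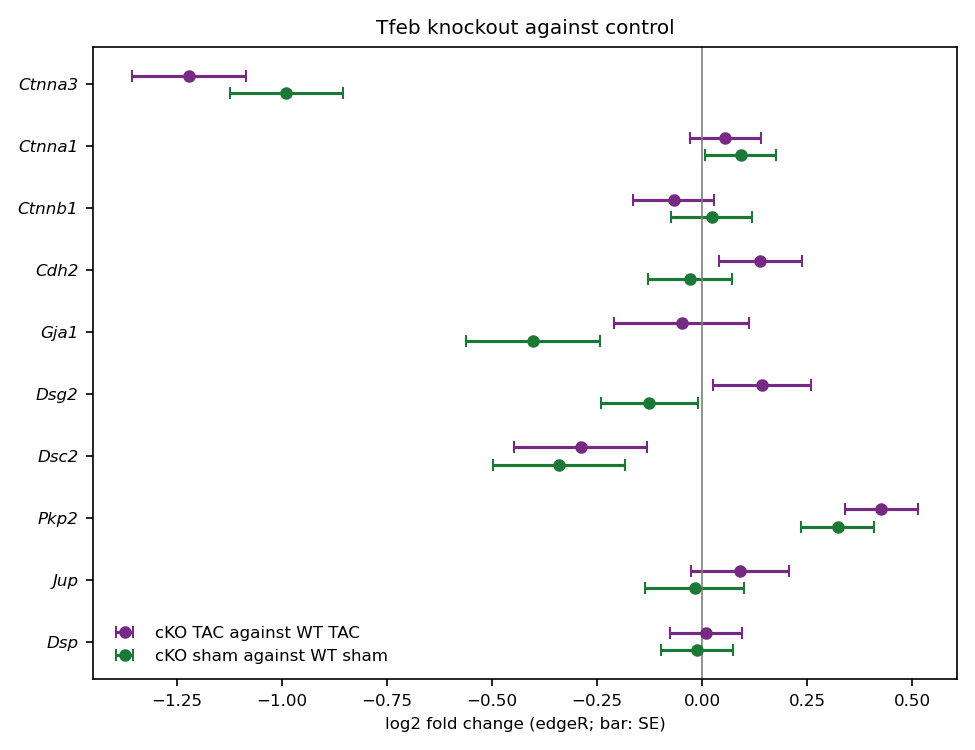
Log2 fold change of the knockout against the control, cKO TAC against WT TAC and cKO sham against WT sham, with SE bars, for the 10 genes. Ctnna3 lies at -1.22 and -0.99, Pkp2 at 0.43 and 0.32, and the others between -0.40 and 0.14.

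After TAC both desmosomal cadherins fell in each genotype, and they were the only members of the 10 that passed the test. Desmoglein-2 and desmocollin-2 are the adhesive proteins that reach across the gap between cells. Dsg2 was at 53.4, 51.8, 60.8 and 59.5 CPM in cKO TAC, against 80.4, 65.6, 82.9 and 79.3 CPM in cKO sham. In controls it was at 40.5, 55.2, 55.8 and 52.9 CPM in WT TAC, against 76.8, 87.9, 72.8 and 98.7 CPM in WT sham. Every TAC library was below every sham library of its genotype. The log2 change was -0.45 (SE 0.12, 0.732 times sham, edgeR adjusted p = 0.0081) in cKO and -0.72 (SE 0.12, 0.608 times sham, edgeR adjusted p = 0.000549) in WT. With library totals in place of TMM factors the change in cKO was -0.26 with an adjusted p of 0.0699. In WT it passed under all 26 alternatives, with -0.80 without WT sham replicate 3 and WT TAC replicate 4.

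Dsc2 was at 24.0, 19.8, 29.3 and 32.2 CPM in cKO TAC, against 40.3, 30.9, 37.1 and 36.2 CPM in cKO sham. In controls it was at 24.9, 34.5, 37.4 and 31.8 CPM in WT TAC, against 36.5, 42.4, 56.1 and 47.9 CPM in WT sham. In each genotype 1 TAC library lay above the lowest sham library. The log2 change was -0.46 (SE 0.16, 0.729 times sham, edgeR adjusted p = 0.0412) in cKO and -0.51 (SE 0.16, 0.704 times sham, edgeR adjusted p = 0.0361) in WT. In cKO it no longer passed without cKO TAC replicate 1 or 2, without cKO sham replicate 1, 3 or 4 or with library totals (adjusted p up to 0.22). In WT it no longer passed without WT TAC replicate 1, 2 or 4, without WT sham replicate 3 or 4, with library totals, or without WT sham replicate 3 and WT TAC replicate 4 (-0.39, adjusted p = 0.15).

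Desmoplakin, the plakin that anchors both cadherins to desmin, had log2 changes of -0.06 (SE 0.09) in cKO and -0.08 (SE 0.09) in WT that did not pass. Per kb of exon, Dsg2 amounted to 7.13% to 8.51% of Dsp in cKO TAC, against 8.65% to 12.4% in cKO sham. In controls the ratio was 5.75% to 7.65% in WT TAC, against 9.9% to 11.8% in WT sham, so that TAC and sham libraries did not overlap in either genotype. Dsc2 amounted to 4.28% to 6.68% of Dsp in cKO TAC and 6.38% to 8.74% in cKO sham, which overlapped, and to 5.55% to 7.9% in WT TAC and 8.17% to 12.0% in WT sham, which did not.

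Markers of several cell types moved with the operation. Of all tested genes 12.4% were lower and 14.2% higher after TAC in cKO, and 6.14% were lower and 9.7% higher in WT. Of 11 cardiomyocyte markers, 6 were lower after TAC in cKO and 2 in WT, and 0 were higher in either genotype. The summed level of 6 fibroblast markers was 1485 to 2425 CPM in cKO TAC, 1138 to 1823 CPM in WT TAC, 702 to 1045 CPM in cKO sham and 563 to 921 CPM in WT sham, and 4 of 6 rose after TAC in cKO and 3 of 6 in WT. Among 6 macrophage markers 5 rose in cKO and 4 in WT, and their sums were 248 to 366 CPM in cKO TAC, 193 to 265 CPM in WT TAC, 136 to 250 CPM in cKO sham and 110 to 182 CPM in WT sham. Of 6 endothelial markers 2 rose and 0 fell in each genotype. Among 6 mural markers 1 rose and 1 fell in cKO, and 1 rose and 0 fell in WT. Of 4 tested Schwann cell markers 1 fell and 0 rose in each genotype. Lymphocyte markers (6 of 6 under 1 CPM in each group) were near 0. The part of the cell mixture in the lower Dsg2 and Dsc2 levels was not tested.

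The remaining 8 genes did not pass after TAC in either genotype. Among adherens junction genes, Cdh2 was at 250, 297, 298 and 336 CPM in cKO TAC against 298, 318, 315 and 298 CPM in cKO sham, a log2 change of -0.06 (SE 0.10, 95% interval -0.25 to 0.14). In controls it was at 244, 256, 270 and 302 CPM in WT TAC against 272, 342, 305 and 335 CPM in WT sham (-0.23, SE 0.10, edgeR adjusted p = 0.13). Ctnna1 was lower in every cKO TAC library (510 to 574 CPM) than in every cKO sham library (607 to 651 CPM), by a log2 of -0.20 (SE 0.08) that did not pass in edgeR (adjusted p = 0.086). By DESeq2 it passed, with -0.21 and an adjusted p of 0.0176. In WT its change was -0.16 (SE 0.08, edgeR adjusted p = 0.193). Ctnnb1, whose protein is also the transcriptional arm of Wnt signalling, was at 297, 305, 305 and 321 CPM in cKO TAC against 317, 282, 280 and 288 CPM in cKO sham. It was at 322, 321, 317 and 327 CPM in WT TAC against 223, 310, 299 and 316 CPM in WT sham, where each TAC library was above each sham library but WT sham replicate 1 stood lower than the rest (0.16, SE 0.10, edgeR adjusted p = 0.258). Ctnna3 had a log2 change of -0.23 (SE 0.14, edgeR adjusted p = 0.23) in cKO and averaged 17.3 CPM in both WT TAC and WT sham, with a 95% interval of the log2 change of -0.26 to 0.25.

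In the desmosomal plaque, Pkp2 had log2 differences between TAC and sham of 0.20 (SE 0.09, edgeR adjusted p = 0.0936) in cKO and 0.10 (SE 0.09, adjusted p = 0.47) in WT. Jup was at 354, 386, 425 and 436 CPM in cKO TAC against 316, 344, 480 and 351 CPM in cKO sham, and at 415, 374, 358 and 357 CPM in WT TAC against 397, 342, 361 and 409 CPM in WT sham. Plakoglobin transcripts overlapped between the operations in both genotypes. Dsp was at 801, 849, 835 and 884 CPM in cKO TAC against 924, 886, 778 and 929 CPM in cKO sham, and at 822, 843, 867 and 816 CPM in WT TAC against 817, 890, 859 and 978 CPM in WT sham. With library totals the median of all genes moved up by 0.192 in cKO and 0.125 in WT, and Pkp2 (0.40, adjusted p = 0.0045) and Jup (0.30, adjusted p = 0.0435) passed in cKO.

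Connexin 43 is the main gap junction protein of the ventricle. Gja1 averaged 332 ± 87.2 CPM in cKO TAC and 329 ± 43.8 CPM in cKO sham, and 343 ± 32.3 CPM in WT TAC and 434 ± 70.5 CPM in WT sham (SD, n = 4 each). The log2 change was 0.01 (SE 0.16, 95% interval -0.30 to 0.33) in cKO and -0.34 (SE 0.16, 95% interval -0.65 to -0.03, edgeR adjusted p = 0.155) in WT. Its spread was the widest of the 10 genes in cKO TAC, with a coefficient of variation of 26.3%, replicates 1 and 2 being at 251 and 262 CPM and replicates 3 and 4 at 394 and 420 CPM. The 5 genes whose pattern over the 16 libraries was most like that of Gja1 were Fam78a (Pearson r = 0.884), Irx4 (0.87), Abhd17c (0.868), Pdp1 (0.853) and Lbh (0.848). Irx4, a homeobox gene of ventricular muscle, was at 29.3 ± 5.54 CPM in cKO TAC and 37.8 ± 3.23 CPM in WT TAC, and at 36.9 ± 4.07 CPM in cKO sham and 54.2 ± 12.8 CPM in WT sham.

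**Figure D3:**
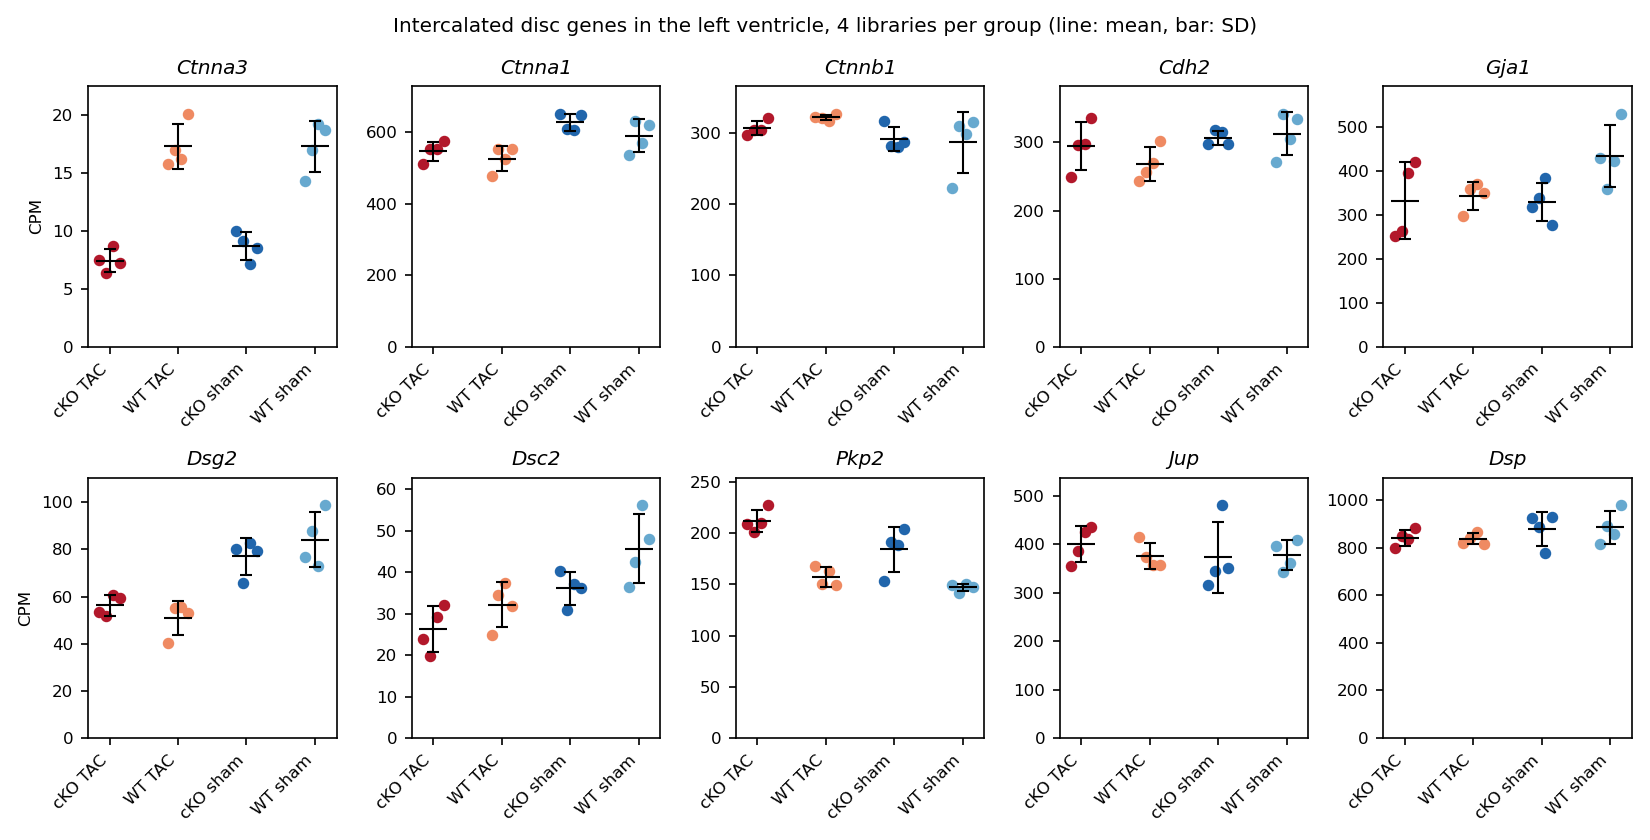
CPM of the 10 genes in each of the 4 libraries of cKO TAC, WT TAC, cKO sham and WT sham left ventricles (points), with the mean and SD; each vertical axis starts at 0. Ctnna3 is lower in both cKO groups than in both WT groups, Dsg2 is lower after TAC in both genotypes, and Pkp2 is higher in cKO than in WT after each operation.

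Counted over the 10 genes, 0 were higher and 2 lower after TAC in cKO, where 26.5% of all tested genes passed (14.2% higher, 12.4% lower). In WT likewise 0 were higher and 2 lower, where 15.8% of all tested genes passed (9.7% higher, 6.14% lower). Libraries of TAC and sham hearts did not overlap for 2 of 10 in cKO (Ctnna1 and Dsg2, both lower) and 2 of 10 in WT (Dsg2 lower, Ctnnb1 higher), against 29.3% and 19.5% of all tested genes. Taken in both directions, these shares are near those of all genes. The median log2 change of the 10 was -0.06 in cKO and -0.12 in WT, against 0.003 and -0.015 over all tested genes.

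Whether the TAC response itself differed between genotypes was tested as an interaction, in which a positive log2 value means a higher response to TAC in cKO. In edgeR 0 of 10 passed, and 0.0% of all tested genes. At an unadjusted p under 0.05 there were 0 of the 10 and 715 of all 15206 genes (4.7%). DESeq2 called 3 genes in all, 0 of them among the 10, and limma voom called 0. Without WT sham replicate 3 and WT TAC replicate 4 edgeR called 2 genes, none of them among the 10. The log2 interaction was 0.27 (SE 0.16, 95% interval -0.05 to 0.59) for Dsg2, 0.05 (SE 0.22, -0.39 to 0.49) for Dsc2 and 0.35 (SE 0.23, -0.09 to 0.80) for Gja1. For Ctnna3 it was -0.23 (SE 0.19, -0.61 to 0.14). A difference in the response was not detectable at this replication, and these intervals do not show that the responses were alike. The TAC and sham groups of each genotype enter both the genotype and the TAC contrasts, so the values share libraries.

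**Figure D4:**
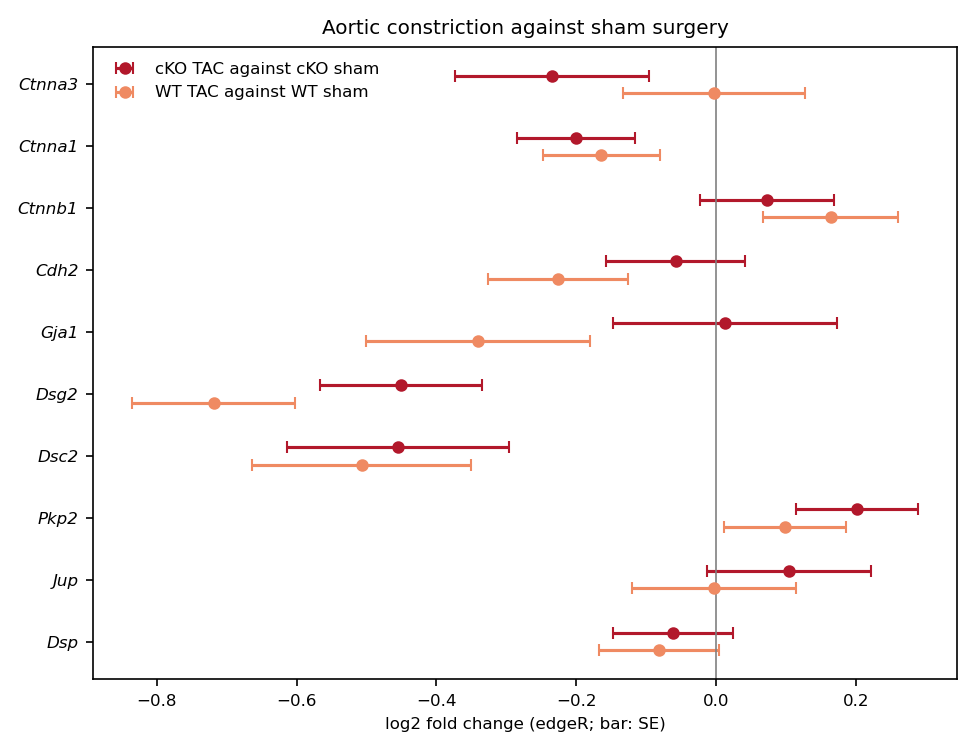
Log2 fold change of TAC against sham surgery in cKO and in WT left ventricles, with SE bars, for the 10 genes. Dsg2 (-0.45 in cKO and -0.72 in WT) and Dsc2 (-0.46 and -0.51) passed the test in both genotypes, and Gja1 lies at 0.01 in cKO and -0.34 in WT.

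Other genes of the disc were counted from lists of known partners, 64 genes in the table of which 42 could be tested. After TAC 12 were higher and 6 lower in cKO, where 14.2% of all tested genes were higher and 12.4% lower. In WT 7 were higher and 6 lower, where 9.7% of all tested genes were higher and 6.14% lower. The lower count in cKO is near the share of all genes, and the separate lists, of 7 to 17 tested genes each, were not tested against these shares. The median log2 change was 0.24 in cKO and 0.03 in WT over the adherens junction partners, -0.04 and -0.01 over the desmosome partners, 0.30 and 0.20 over the connexins and pannexins, and -0.15 and -0.06 over the channels and scaffolds, against 0.003 and -0.015 over all tested genes. Without WT TAC replicate 1 the lower count in WT was 0, and without WT sham replicate 4 it was 1. In cKO the higher count was 7 without cKO sham replicate 3. The interaction passed for 0 of 42 in edgeR (1 at an unadjusted p under 0.05, Synm).

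Among 11 tested adherens junction partners 4 rose and 0 fell after TAC in cKO. The cell adhesion molecules Nectin1 (10.9 ± 0.894 CPM in cKO TAC and 6.4 ± 1.58 CPM in cKO sham, log2 0.77, SE 0.18, edgeR adjusted p = 0.00485) and Nectin3 (log2 0.64, SE 0.14, adjusted p = 0.00266) rose, as did Vcl, the gene of the actin linker vinculin (0.52, SE 0.17, adjusted p = 0.0375). In WT 0 rose and 1 fell, Nectin2, at 32.4 ± 2.07 CPM in WT TAC and 48.5 ± 13.4 CPM in WT sham (-0.58, SE 0.17, edgeR adjusted p = 0.0296). Nectin1 and Nectin3 had log2 changes of 0.54 and 0.38 in WT with adjusted p of 0.0542 and 0.0703.

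Of 7 tested desmosome partners 2 rose and 1 fell after TAC in cKO. The intermediate filament genes Des (4694 ± 729 CPM in cKO TAC and 3058 ± 304 CPM in cKO sham) and Synm (20.4 ± 1.99 and 11.3 ± 1.13 CPM; synemin) rose by log2 0.62 (SE 0.15, edgeR adjusted p = 0.00487) and 0.85 (SE 0.18, adjusted p = 0.00227). Periplakin (Ppl), a plakin related to desmoplakin, fell by 1.95 on the log2 scale (SE 0.41, edgeR adjusted p = 0.00289), at 2.92 ± 0.856 CPM in cKO TAC and 11.2 ± 4.93 CPM in cKO sham. In WT 2 rose and 0 fell: Des (0.50, SE 0.15, edgeR adjusted p = 0.0267) and Tmem43 (0.55, SE 0.11, adjusted p = 0.00312), a nuclear envelope protein gene linked to arrhythmogenic cardiomyopathy in people.

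Among 7 tested connexins and pannexins other than Gja1, 3 rose and 1 fell after TAC in cKO, and 1 rose and 1 fell in WT. Panx1, which forms ATP-releasing membrane channels, was at 13.7 ± 5.89 CPM in cKO TAC and 3.21 ± 1.77 CPM in cKO sham (log2 2.08, SE 0.35, edgeR adjusted p = 0.000553). In controls it was at 6.81 ± 1.09 CPM in WT TAC and 2.1 ± 0.831 CPM in WT sham (1.69, SE 0.38, edgeR adjusted p = 0.007). Gjc1 (connexin 45) rose in cKO by log2 0.39 (SE 0.12, edgeR adjusted p = 0.0241). Gja3 fell by 0.49 on the log2 scale (SE 0.18, edgeR adjusted p = 0.0486) in cKO and by 0.57 (SE 0.18, adjusted p = 0.0342) in WT.

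Of 17 channels and scaffolds of the disc, all tested, 3 rose and 4 fell after TAC in cKO, and 4 rose and 4 fell in WT. Xirp2, an actin-binding repeat protein of the disc, was at 2195 ± 580 CPM in cKO TAC and 715 ± 160 CPM in cKO sham (log2 1.62, SE 0.27, edgeR adjusted p = 0.000542), and at 1395 ± 593 CPM in WT TAC and 430 ± 92.1 CPM in WT sham (1.70, SE 0.27, adjusted p = 0.000686). The actin-linked scaffolds Flnc and Nrap also rose in both genotypes, Flnc by log2 0.80 (adjusted p = 0.0262) in cKO and 1.03 (adjusted p = 0.0119) in WT, Nrap by 0.38 (adjusted p = 0.0413) and 0.71 (adjusted p = 0.00157). Scn4b, a beta subunit of the cardiac sodium channel, fell by 1.56 on the log2 scale (SE 0.24, edgeR adjusted p = 0.000319) in cKO and by 0.90 (SE 0.24, adjusted p = 0.0179) in WT. Ank2, the gene of the membrane anchor ankyrin-B, fell by 0.38 and 0.37, and Tmem65 by 0.40 and 0.41, with adjusted p of 0.0102 to 0.0196 over both genes and genotypes.

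**Figure D5:**
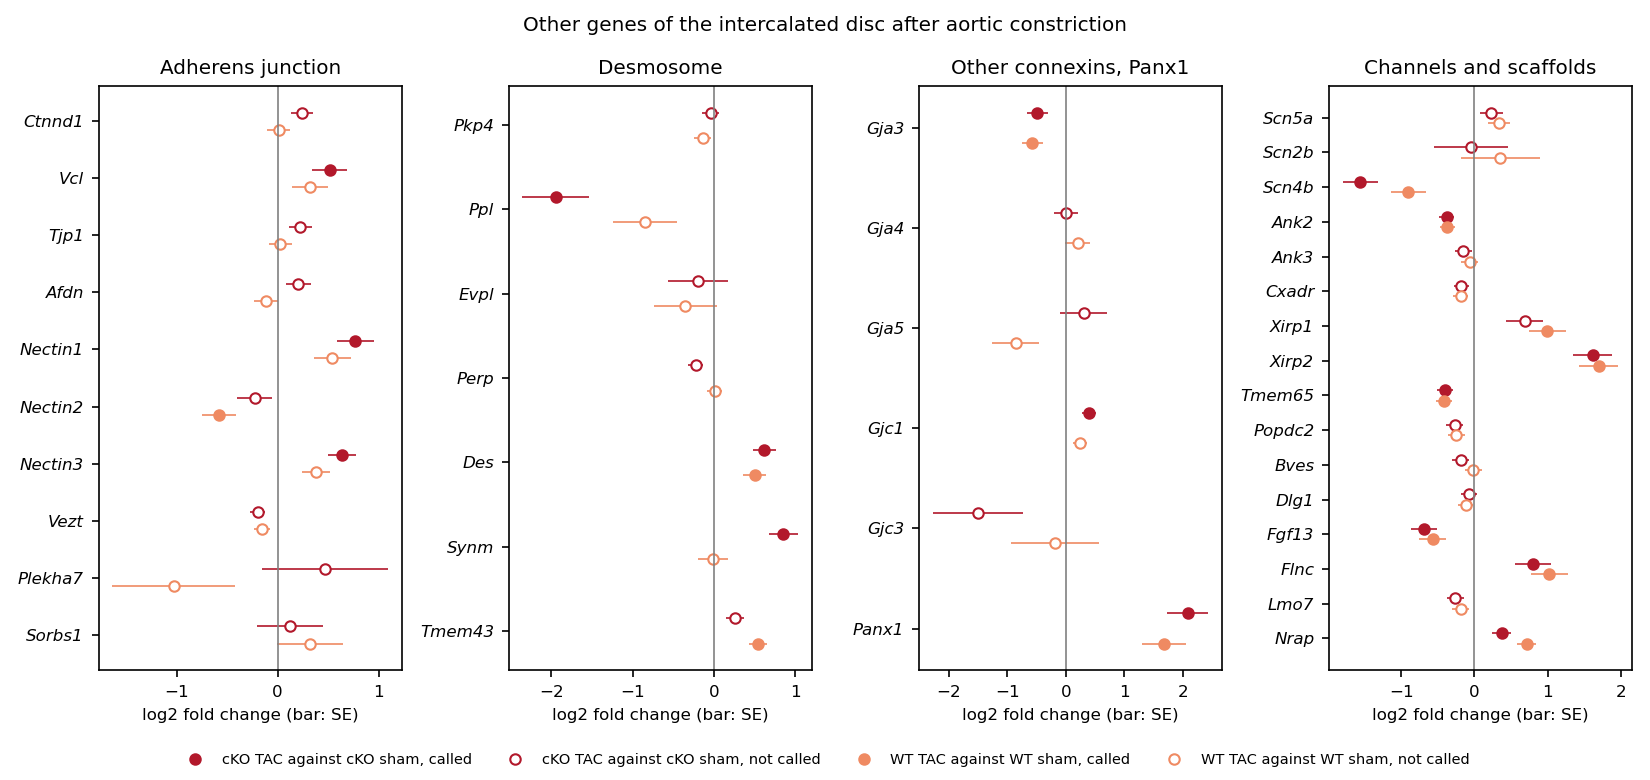
Log2 fold change of TAC against sham surgery, with SE bars, for 39 other genes of the disc in 4 lists, in cKO and in WT left ventricles. Filled points passed the edgeR test and open points did not; of the genes plotted, 10 were higher and 6 lower in cKO, and 7 higher and 6 lower in WT.

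Since beta-catenin also acts in Wnt signalling, 19 genes of that pathway were counted, of which 14 could be tested. The list takes in components of the complex that degrades beta-catenin (Axin1, Apc and Gsk3b), TCF/LEF factors, and target and feedback genes. After TAC 4 rose and 0 fell in cKO, where 14.2% of all tested genes were higher and 12.4% lower, and 2 rose and 1 fell in WT, which is close to the 9.7% and 6.14% of all tested genes. The median log2 change of the 14 was 0.147 in cKO and 0.065 in WT. Nkd2, a Wnt antagonist, was at 13.0 ± 4.02 CPM in cKO TAC and 3.07 ± 0.816 CPM in cKO sham (log2 2.07, SE 0.26, edgeR adjusted p = 4.97e-05), and at 8.72 ± 2.14 CPM in WT TAC and 2.73 ± 0.763 CPM in WT sham (1.67, SE 0.27, adjusted p = 0.000534). Ccnd1, the gene of cyclin D1, rose by log2 0.80 (SE 0.17, edgeR adjusted p = 0.00303) in cKO and 1.13 (SE 0.17, adjusted p = 0.000487) in WT. Ccn4 (2.20, SE 0.47, adjusted p = 0.00335) and the kinase gene Gsk3b (0.27, SE 0.09, adjusted p = 0.0415) rose in cKO, and Tnfrsf19 fell by 1.58 on the log2 scale (SE 0.45, edgeR adjusted p = 0.0249) in WT. Fibroblast markers rose with the same operation, as given above, and their part in these changes was not tested.

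Between genotypes, 0 of the 42 partners were lower and 2 higher in cKO TAC than in WT TAC, where 1.18% of all tested genes were lower and 0.598% higher. In cKO sham against WT sham 0 were lower and 3 higher, where 0.552% of all tested genes were lower and 0.618% higher. Perp, a membrane protein of desmosomes (0.41, SE 0.09, edgeR adjusted p = 0.0265), and Tmem43 (0.71, SE 0.11, adjusted p = 0.00312) were higher in cKO sham, and Des (0.64, SE 0.15, edgeR adjusted p = 0.0346) was higher in cKO TAC. These 3 genes were not picked by the rule for named genes in the genotype contrasts and were chosen after their values were seen.

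Reads of some genes could include those of partners on the other strand, since strandedness is not given in the sources used here. In the GRCm38 annotation exons of Ctnnb1 share 759 bases with Ulk4, those of Dsg2 330 bases with Gm16090, those of Dsp 499 bases with Gm10129 and those of Ctnna1 95 bases with Lrrtm2, each on the opposite strand. Counts assigned to these 4 partners reached at most 0.712, 0.306, 0.389 and 0.277 CPM in any library. Reads assigned to neither gene would not appear in these counts, which therefore do not bound the effect on the disc genes.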

How the data were processed

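Whole counts per Ensembl gene ID were deposited by the authors as 1 table with 1 column per library and no normalization, per the file headers and the values. Per the submitters' processing notes, the tools were featureCounts 2.0.6, HISAT2 2.0.5, fastp 0.22.0, FastQC and SAMtools 1.21, and the build was GRCm39; the annotation release and strandedness are not given in the sources used here. Symbols, exon lengths and spans came from GENCODE M21 on GRCm38 (51880 of 57186 IDs matched). In R 4.3.3 with edgeR 4.0.16, filterByExpr kept 15206 genes, TMM factors scaled the libraries, and a robust quasi-likelihood model gave each group 1 mean over the 16 libraries (12 residual degrees of freedom, biological coefficient of variation 16.53%). P-values were adjusted by Benjamini-Hochberg over all tested genes of a comparison, and an adjusted p under 0.05 passed. Standard errors were taken from the F statistic, and 95% intervals are the estimate plus or minus 1.96 SE. That multiplier belongs to a normal distribution, so the intervals are approximate and somewhat too narrow for the residual degrees of freedom. The model was tested on simulated data in which randomly picked genes were changed between 2 groups. Of 100 genes changed by a log2 of 0.5 in either direction, 16% to 24% were recovered, depending on the comparison. Of 100 changed by a log2 of 1, 67% to 76% were. No other genes were changed among the 15022 to 15051 tested there. In the TAC contrasts of the real data 26.5% of all tested genes passed in cKO and 15.8% in WT. The adjusted threshold depends on the share of changed genes, so the recovery in the TAC contrasts may differ from these values. A gene that did not pass may still have changed. Alternatives were DESeq2 1.42.0 (size factors, Wald test), limma 3.58.1 voom, library totals, no filter, at least 1 CPM in 4 libraries, the replicate number as a block, only the groups compared, no mitochondrially encoded genes, WT sham replicate 3 and WT TAC replicate 4 (of the WT libraries, those richest in atrial transcripts) left out together, and each library left out.

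The members, gene lists and tests were chosen with earlier results of these data known. Named are the 10 genes, up to 4 genes with the smallest p of each partner list in the 3 TAC comparisons, the 5 genes most like Ctnna3 and Gja1, and up to 3 protein-coding genes on each side of Ctnna3 with any nested in it. The edgeR p-values set a difference against the spread between mice of the same group as labelled. That spread was estimated for each gene from all 16 libraries together and moderated across genes. Some genes named by this rule or counted in the lists are not reported here.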

Additional observations from a re-analysis of the deposited data

How the results depend on the processing

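The number of the 10 disc genes that passed after TAC in WT was 2, and 1 with library totals only and 1 without WT sham replicate 3 and WT TAC replicate 4, which had the most atrial transcripts among the WT libraries; leaving out each library gave 1 to 2. In cKO it was 2, with 1 to 2 on leaving out each library. With library totals only, the genes that passed there changed. Pkp2 (0.40, edgeR adjusted p = 0.0045) and Jup (0.30, adjusted p = 0.0435) passed as higher. Dsg2 (adjusted p = 0.0699) and Dsc2 (adjusted p = 0.22) then no longer passed. By the DESeq2 Wald test Ctnna1 also passed in cKO (-0.21, adjusted p = 0.0176). Between cKO TAC and WT TAC the number was 2, 1 without those 2 WT libraries, and 1 to 2 on leaving out each library. Between cKO sham and WT sham it was 1, 2 by the DESeq2 Wald test, and 1 to 2 on leaving out each library. The genotype contrasts chose the list, so nothing is read from these 2 counts. The cause of the changes between settings was not tested. Of the 42 other disc genes, 12 were higher after TAC in cKO, and 7 to 13 on leaving out each library; 6 were lower in cKO and 3 with library totals only; 6 were lower in WT, 2 with library totals only, 3 with no filter on low counts (more genes tested), and 0 to 6 on leaving out each library. No direction of a called value reversed. Samples with the same replicate number in 2 groups had deviations from their group means that correlated by -0.16 to 0.229 (24 pairs, 4 over 0.1). Pairs with different numbers were not computed, so this range cannot show whether the number marks a pairing. With the replicate block the 10 genes gave 2 calls after TAC in each genotype, 2 between cKO TAC and WT TAC, and 1 between cKO sham and WT sham, as without it. Over all genes the calls in cKO sham against WT sham went from 94 higher and 84 lower to 132 and 103 with the block. Those after TAC in WT went from 1475 and 934 to 1423 and 913. Depth limits Ctnna3 most, at 96 to 345 counts per library.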

Other observations

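Ctnna3 is among the longest genes that were tested. Gene span was looked at after its values were seen, and is given as a description with no test. Of 29 other tested protein-coding genes that span 1000 kb or more, 3 were lower in cKO sham than in WT sham (10.3%) and 0 higher, against 0.606% lower of the 13212 protein-coding genes examined. These were Dmd, the gene of dystrophin (log2 -1.23, SE 0.14), Pde4d, a cyclic AMP phosphodiesterase (-0.64, SE 0.14), and Ptprd, a receptor phosphatase (-0.69, SE 0.16). In cKO TAC against WT TAC Dmd alone passed among the 29, with a log2 difference of -1.13 (SE 0.14). The median log2 difference over the 29 genes was -0.19 in cKO sham and -0.20 in cKO TAC relative to WT, against -0.009 and 0.01 over all 13212. Genes spanning 500 to 1000 kb had medians of -0.11 and 0.008 in the same comparisons (96 genes). Immp2l, the gene most like Ctnna3 over the 16 libraries, spans 931 kb, and Wif1, also among the 5 most alike, 66.7 kb. The part of span in the Ctnna3 difference was not tested.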
